A study of Mus musculus with 4 samples.

Results

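Transcription factors that set granulocyte and monocyte fate were followed across 4 arrays of donor-derived progenitors from the BM of fetal liver chimeras. The genes were *Cebpa*, *Cebpb*, *Cebpd*, *Cebpe*, *Spi1*, *Gfi1*, *Runx1*, *Klf4* and *Irf5*, chosen by their symbols in the array annotation. All 9 were found, each with 1 probe set that carries no other symbol, among 19938 genes with a single symbol. The arrays were 1 each of *Bcl11a*-/- granulocyte-macrophage progenitors (GMPs), WT GMPs, *Bcl11a*-/- multipotent progenitors (MPPs) and WT MPPs. Donor cells came from *Bcl11a*-/- or *Bcl11a*+/+ fetal livers, and every recipient was a lethally irradiated B6.SJL mouse. Per the labels, BM was taken 4 weeks after transfer, while the study's methods also name a later time. MPPs were LSK cells that lack CD150, and RNA came from pools of the mice of a donor genotype, of a size not stated in the sources used here. The *Bcl11a*-/- allele lacks the first exon in all cells of the donor, so the gene was also lost in the progeny of these progenitors, and mice of this genotype die before or around birth. The labels give B6.SJL as the genetic background of all 4 samples. That is the strain of the recipients, while the cells profiled were derived from the donors.

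These factors act in sequence and in opposition. C/EBPα, the product of *Cebpa*, is needed for the step from common myeloid progenitors to GMPs. PU.1, the product of *Spi1*, acts in both monocytes and granulocytes and is raised by RUNX1, while GFI1 restrains PU.1 and favors granulocytes. C/EBPε drives the late, secondary granule stage of neutrophils and eosinophils. C/EBPβ takes over granulocyte output under stress, and KLF4 and IRF5 belong to the monocyte and macrophage side. GMPs are the committed step of this path and MPPs an earlier one, so each gene can be read by genotype and by stage.

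Signal was deposited as 1 log2 value per probe set and array after RMA with quantile normalization. With 1 array per condition there was no replicate, and no difference has an SD, an interval or a p-value. Differences of more than 2-fold, the threshold the study used, were counted. Bulk signal does not tell more RNA per cell from more cells of a type. As a check of the labels, *Bcl11a* signal (log2) was 7.77 in *Bcl11a*-/- GMPs and 8.60 in WT GMPs, and 8.64 in *Bcl11a*-/- MPPs and 9.89 in WT MPPs. Probes outside the deleted exon may still find transcript. As a check of the populations, 5 of 9 GMP marker genes were over 2-fold higher in GMPs than in MPPs in *Bcl11a*-/- cells, with 1 lower. In WT cells 5 of 9 were higher, with none lower. Of all probe sets 5.91% were over 2-fold higher and 3.08% lower in *Bcl11a*-/- cells, and 2.67% and 1.55% in WT cells. *Ctsg*, *Elane*, *Ms4a3* and *Prtn3* were among the 5 in each genotype. They also differed between genotypes in MPPs (below), so the check is not separate from genotype. *Kit*, which encodes the receptor used to sort LSK cells, had log2 signals between 9.30 and 9.62 on the 4 arrays. Genes of late neutrophils were also bright on all arrays, MPPs included, with *S100a8* between 12.92 and 13.03. Whether cells of another type added to the MPP signal was not tested.

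Before the values, promoter sequence is shown for 4 of the genes. *Cebpb* and *Klf4* are shown because their differences between genotypes were among the larger ones below, and *Gfi1* and *Runx1* because their promoters hold a motif bound by another of these factors. Each line gives 100 bases of the promoter of a RefSeq transcript (GRCm38.p6), 5′ to 3′ on the strand of the gene, with the motif in capitals. The stretch ends at the base before the start, except for *Gfi1*, where it lies further out and surrounds the motif.
*Cebpb*, chr2:167688815-167688914, plus strand: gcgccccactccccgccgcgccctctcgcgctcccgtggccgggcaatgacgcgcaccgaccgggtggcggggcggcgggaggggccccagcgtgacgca
*Klf4*, chr4:55532476-55532575, minus strand: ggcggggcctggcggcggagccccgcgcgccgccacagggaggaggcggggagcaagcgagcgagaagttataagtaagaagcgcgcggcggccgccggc
*Gfi1*, chr5:107725896-107725995, minus strand: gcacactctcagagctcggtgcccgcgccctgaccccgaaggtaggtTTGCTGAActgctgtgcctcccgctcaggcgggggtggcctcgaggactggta
*Runx1*, chr16:92697330-92697429, minus strand: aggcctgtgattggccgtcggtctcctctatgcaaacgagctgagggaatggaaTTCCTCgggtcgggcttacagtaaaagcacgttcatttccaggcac

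The capitals in *Gfi1* mark the C/EBP motif TTGCNNAA, 143 to 136 bases before the start. The capitals in *Runx1* mark the PU.1 motif GAGGAA read from the other strand, 46 to 41 bases before the start of its downstream promoter. Motifs were searched on both strands in the 250 bases before each start, over 8 windows of 6 of the 9 genes. GAGGAA was in 1 of the 8 windows and in 23.3% of all 32851 windows of that length, and TTGCNNAA in 1 of 8 and in 9.56% of all. The RUNX motif TGTGGT (14% of all windows) and the BCL11A motif TGACCA (11.4% of all windows) were in none of the 8. The *Cebpb* window was rich in G and C, at 81.6% of its bases. These matches describe the letters only.

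No gene of the set differed by more than 2-fold between genotypes in GMPs, where 0.669% of the 28853 probe sets did (0.319% higher and 0.35% lower in *Bcl11a*-/- cells). In *Bcl11a*-/- GMPs 7 of the 9 genes had lower values than in WT GMPs and 2 had higher values. The median of the 9 differences was −0.15 on the log2 scale, and that of all probe sets was 0.01. The 9 differences lay between −0.65 and 0.23. For scale, 95% of all probe sets differed by less than 0.55 between the GMP arrays, and *Klf4* alone lay beyond that value. Above 1.5-fold there was 1 gene of the 9, lower in *Bcl11a*-/- cells, against 4.05% of all probe sets in either direction (2.22% higher and 1.83% lower).

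In MPPs too, none of the 9 differed by more than 2-fold, against 3.9% of all probe sets, of which 1.39% were higher and 2.51% lower in *Bcl11a*-/- cells. Values were higher in *Bcl11a*-/- MPPs for 5 genes and lower for 4, with a median difference of 0.02 and a range from −0.68 to 0.87. The signs of *Cebpa* and *Runx1*, both near 0, depended on how the arrays were scaled. The same yardstick was wider in this population, where 95% of all probe sets differed by less than 0.90, and none of the 9 exceeded it. Above 1.5-fold there were 3 genes, *Cebpe* and *Cebpb* higher and *Spi1* lower, against 13.2% of all probe sets in either direction (6.02% higher and 7.23% lower). The 3 genes are a larger share of the set than that background, but the set was chosen with earlier results of these data known. Each difference rests on a single pair of arrays. The background also holds dim probe sets, with 55.7% under a log2 signal of 6 in *Bcl11a*-/- MPPs and 56.3% in WT MPPs. All 9 genes were above 6, so the larger share is not read as a result.

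**Figure D1:**
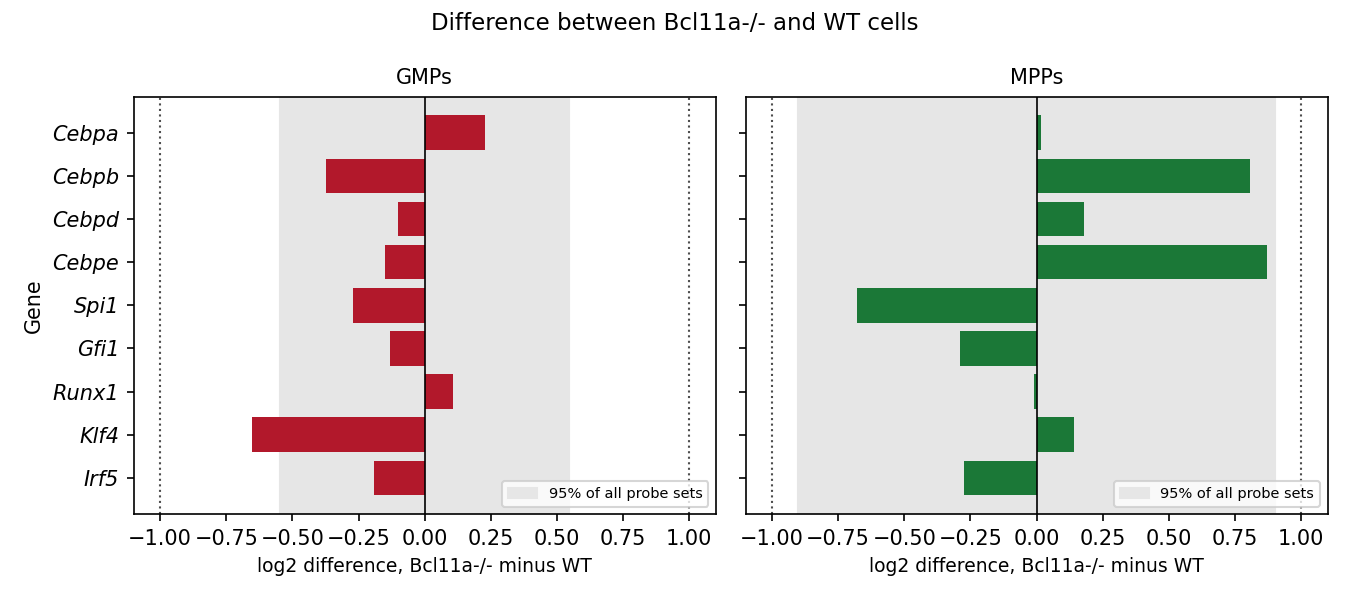
Log2 difference, *Bcl11a*-/- minus WT, for the 9 genes, with GMPs in the left panel and MPPs in the right one, each bar from a single pair of arrays; the grey band holds 95% of all probe sets and dotted lines mark a 2-fold difference. In GMPs *Klf4* at −0.65 passes the band, and in MPPs *Cebpe* at 0.87, *Cebpb* at 0.81 and *Spi1* at −0.68 are the longest bars.

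Among the C/EBP factors, *Cebpb* and *Cebpe* had the largest differences between genotypes, and both were in MPPs. *Cebpb* (probe set 10478890), the factor of stress granulopoiesis, had log2 signals of 7.85 in *Bcl11a*-/- GMPs and 8.22 in WT GMPs, and of 7.84 in *Bcl11a*-/- MPPs and 7.03 in WT MPPs. WT MPPs thus stood lowest, WT GMPs highest, and the 2 *Bcl11a*-/- arrays lay between them at nearly the same level. The gene was 1.75-fold higher in *Bcl11a*-/- than in WT MPPs, and 2.62% of all probe sets were at least as far in that direction. In GMPs it was 1.30-fold lower in *Bcl11a*-/- cells. Shares of all probe sets at least as far, here and below, count dim probe sets too. No such share was taken among probe sets of like signal.

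*Cebpe* (probe set 10419850), the factor of secondary granule genes, had log2 signals of 8.89 in *Bcl11a*-/- GMPs, 9.04 in WT GMPs, 8.40 in *Bcl11a*-/- MPPs and 7.53 in WT MPPs. The array of WT MPPs was again the low one. The gene was 1.83-fold higher in *Bcl11a*-/- than in WT MPPs, with 2.06% of all probe sets at least as far in that direction, and 1.11-fold lower in *Bcl11a*-/- than in WT GMPs. Across the alternative treatments of the arrays the MPP difference was between 0.82 and 0.95 for *Cebpe* and between 0.76 and 0.87 for *Cebpb*. Of 11 mast cell, eosinophil and basophil markers, a list that holds *Cebpe* itself, 8 had higher values in *Bcl11a*-/- than in WT MPPs, with a median of 0.34 and log2 signals from 3.79 to 9.81 in *Bcl11a*-/- MPPs and from 3.45 to 10.47 in WT MPPs. The 1 marker of this list over 2-fold in MPPs, *Prg2* (an eosinophil granule protein), was 2.47-fold lower in *Bcl11a*-/- MPPs. In GMPs 7 of the 11 had lower values in *Bcl11a*-/- cells and 4 higher. Their median was −0.52 (−0.15 once signals under 5 were set to 5). *Epx* was 3.96-fold and *Prg3* 2.02-fold lower in *Bcl11a*-/- GMPs, and *Gata2* was 2.29-fold higher. Of all probe sets 0.35% were over 2-fold lower and 0.319% higher there. The part of these markers in the *Cebpe* difference was not tested.

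*Cebpa* and *Cebpd* showed little of this. *Cebpa* (probe set 10552140), which encodes the factor needed to form GMPs, had log2 signals of 9.22 in *Bcl11a*-/- GMPs, 8.99 in WT GMPs, 8.72 in *Bcl11a*-/- MPPs and 8.70 in WT MPPs. The MPP arrays were within 0.02 of each other, and in GMPs the gene was 1.17-fold higher in *Bcl11a*-/- cells. *Cebpd* (probe set 10433885), a factor of the acute phase response that is also present in developing granulocytes, had log2 signals of 7.54 in *Bcl11a*-/- GMPs, 7.64 in WT GMPs, 6.62 in *Bcl11a*-/- MPPs and 6.44 in WT MPPs. Its arrays separated by population and hardly by genotype. The other measured bZIP factors of the family, *Cebpg* and *Ddit3*, were within 2-fold in both populations, and *Ddit3*, which encodes the stress factor CHOP, differed by −0.16 in GMPs and −0.09 in MPPs.

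*Spi1* went the other way in MPPs. The *Spi1* probe set (10473809) had log2 signals of 9.60 in *Bcl11a*-/- GMPs, 9.87 in WT GMPs, 8.57 in *Bcl11a*-/- MPPs and 9.25 in WT MPPs. Each *Bcl11a*-/- array was below the WT array of its population. The gene was 1.60-fold lower in *Bcl11a*-/- MPPs, with 5.55% of all probe sets at least as far in that direction, and 1.21-fold lower in *Bcl11a*-/- GMPs. With both MPP arrays quantile normalized anew the difference of −0.68 became −0.53, the smallest of the settings tried. Of 16 measured ETS factors, the family of PU.1, 1 was over 2-fold lower in each population and none was higher. This was *Spib*, the close relative of *Spi1* used by B cells and pDCs, which was 2.07-fold lower in *Bcl11a*-/- GMPs and 2.81-fold lower in *Bcl11a*-/- MPPs. B cell markers also had lower values in both *Bcl11a*-/- populations. All 11 measured ones were over 2-fold lower in *Bcl11a*-/- MPPs, with log2 signals from 3.30 to 7.08 in *Bcl11a*-/- MPPs and from 6.21 to 10.58 in WT MPPs, and in *Bcl11a*-/- GMPs 5 of 11 were over 2-fold lower (2 once log2 signals under 5 were set to 5). Of all probe sets, 0.35% were over 2-fold lower in GMPs and 2.51% in MPPs. Of 12 DC markers, *Spib* included, 4 were over 2-fold lower in *Bcl11a*-/- MPPs and 1 in *Bcl11a*-/- GMPs, and none was higher. Of 9 GMP markers 4 were over 2-fold lower in *Bcl11a*-/- MPPs and 0 in *Bcl11a*-/- GMPs, and none was higher. B cells also use PU.1, and the part of the B cell, DC and GMP markers in the *Spi1* difference was not tested.

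*Gfi1* (probe set 10532124), the repressor that favors granulocytes, had log2 signals of 7.52 in *Bcl11a*-/- GMPs, 7.65 in WT GMPs, 6.32 in *Bcl11a*-/- MPPs and 6.61 in WT MPPs. GMPs were above MPPs in both genotypes. The genotype differences were small, 1.10-fold lower in *Bcl11a*-/- GMPs and 1.22-fold lower in *Bcl11a*-/- MPPs. Its paralog *Gfi1b*, which acts in red cell and platelet precursors, had log2 signals of 8.67 in *Bcl11a*-/- GMPs and 7.34 in WT GMPs, 2.51-fold higher in *Bcl11a*-/- cells. In MPPs *Gfi1b* was 9.47 in *Bcl11a*-/- cells and 8.72 in WT cells, 1.69-fold higher. None of the other measured genes of the LSD1 and CoREST corepressor complex that GFI1 recruits was over 2-fold in either population.

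*Runx1* (probe set 10441003), which acts from the first blood stem cells onward, was the steadiest of the 9. Its log2 signals were 9.35 in *Bcl11a*-/- GMPs, 9.25 in WT GMPs, 9.50 in *Bcl11a*-/- MPPs and 9.51 in WT MPPs, a span of 0.27 over the 4 arrays. Among the 5 measured genes of RUNX factors and their partners none was over 2-fold, and the largest difference was that of *Runx3* in MPPs, 9.97 in *Bcl11a*-/- cells and 9.10 in WT cells, 1.83-fold higher. *Runx3* passed 2-fold, at 1.14 on the log2 scale, with the MPP arrays quantile normalized anew. In GMPs the largest was that of *Cbfa2t3*, a corepressor gene, with 7.42 in *Bcl11a*-/- cells and 6.99 in WT cells.

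Of the monocyte factors *Klf4* differed by over 1.5-fold between genotypes in GMPs, and *Irf5* in neither population. *Klf4* (probe set 10513008) had log2 signals of 6.62 in *Bcl11a*-/- GMPs, 7.28 in WT GMPs, 6.53 in *Bcl11a*-/- MPPs and 6.39 in WT MPPs. WT GMPs stood above the other arrays, which lay close together. The gene was 1.57-fold lower in *Bcl11a*-/- GMPs, and 1.32% of all probe sets were at least as far in that direction. *Irf5* (probe set 10536898), which acts downstream of Toll-like receptors, had log2 signals of 6.37 in *Bcl11a*-/- GMPs, 6.56 in WT GMPs, 6.60 in *Bcl11a*-/- MPPs and 6.87 in WT MPPs. It was 1.14-fold lower in *Bcl11a*-/- GMPs and 1.21-fold lower in *Bcl11a*-/- MPPs.

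Relatives of the monocyte factors are set beside them. Of 17 Krüppel-like factor genes, *Klf4* included, only *Klf1*, an erythroid factor, was over 2-fold, 3.23-fold higher in *Bcl11a*-/- GMPs, while in MPPs the largest difference of the family among genes with a log2 signal of at least 6 was 0.55, for *Klf10*. The dimmer *Klf12* differed by 0.71 in MPPs. Of 8 measured interferon regulatory factor genes, *Irf5* among them, all had lower values in *Bcl11a*-/- GMPs, none by more than 2-fold, with a median of −0.19. After lowess centring or quantile normalization anew 7 of the 8 were lower. *Irf8*, which sets monocyte and DC fate, had log2 signals of 7.98 in *Bcl11a*-/- GMPs and 8.55 in WT GMPs, 1.49-fold lower. In MPPs it was 7.53 in *Bcl11a*-/- cells and 8.01 in WT cells, 1.40-fold lower, and the largest difference of the family there among genes with a log2 signal of at least 6 was that of *Irf9*, an interferon signaling factor, at −0.61. The dimmer *Irf4* differed by −0.78 in MPPs. Tissue dissociation can switch on immediate early and heat shock genes. A list of immediate early genes, with *Hspa1a* as its only heat shock gene, mostly had lower values in both *Bcl11a*-/- populations. In GMPs this held for 14 of 15 genes, with a median of −0.40 and log2 signals from 5.08 to 11.56 in *Bcl11a*-/- GMPs and from 5.43 to 11.74 in WT GMPs. Among them, *Hspa1a* (a chaperone) was 3.71-fold lower in *Bcl11a*-/- GMPs, and it was 2.65-fold lower in *Bcl11a*-/- MPPs. In MPPs, where *Klf4* differed by 0.14, 13 of the 15 had lower values (10 with the arrays quantile normalized anew), with a median of −0.30. The part of the genes of this list in the *Klf4* difference was not tested. For counts of lower or higher values in a list, here and below, no share of all probe sets was taken. The median difference of all probe sets was 0.01 in GMPs and 0.05 in MPPs.

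**Figure D2:**
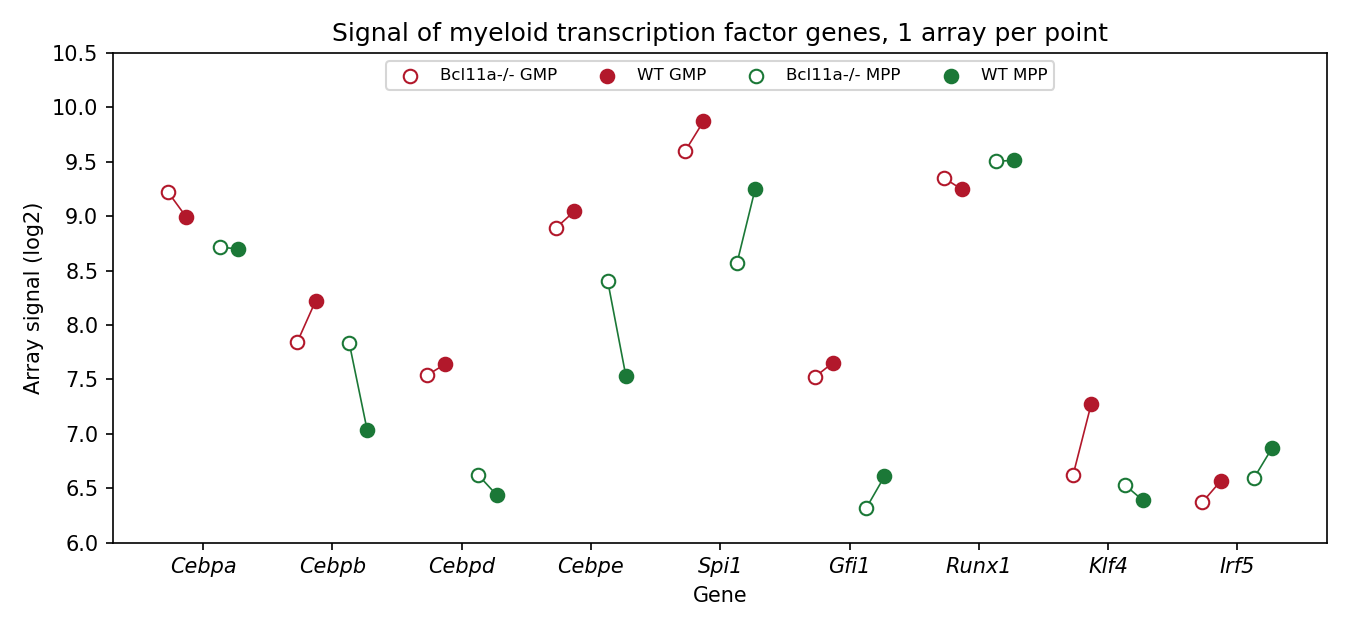
Array signal (log2) of the 9 genes in GMPs (red) and MPPs (green), with *Bcl11a*-/- cells as open circles left of WT cells as filled circles; each point is 1 array, and a line joins the genotypes of a population. *Cebpb* in *Bcl11a*-/- MPPs, at 7.84, is level with *Bcl11a*-/- GMPs at 7.85, while WT MPPs are at 7.03.

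The same arrays were read by stage, GMPs against MPPs, within each genotype. These comparisons use the arrays above a second time and are not a separate source of evidence. Among *Bcl11a*-/- cells 2 of the 9 genes were over 2-fold higher in GMPs than in MPPs, *Gfi1* (2.30-fold) and *Spi1* (2.04-fold), and none was lower, against 8.99% of all probe sets in either direction, 5.91% higher and 3.08% lower. *Spi1* was below 2-fold after lowess centring (0.86 on the log2 scale) and with the arrays quantile normalized anew (0.74). In WT cells 4 of the 9 were over 2-fold higher in GMPs and none was lower, against 4.22% of all probe sets in either direction, of which 2.67% were higher and 1.55% lower. They were *Cebpe* (2.85-fold), *Cebpd* (2.30-fold), *Cebpb* (2.28-fold) and *Gfi1* (2.06-fold), of which *Gfi1*, at 0.997 on the log2 scale, fell just short after quantile normalization was repeated.

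The median difference of the 9 between GMPs and MPPs was 0.49 in *Bcl11a*-/- cells and 0.89 in WT cells, beside medians over all probe sets of −0.11 and −0.06. *Cebpb* was 1.19 higher in WT GMPs than in WT MPPs on the log2 scale, and in *Bcl11a*-/- cells the difference was 0.01, between −0.13 and 0.11 over the settings tried. *Cebpe* differed by 0.49 in *Bcl11a*-/- cells and by 1.51 in WT cells, and *Klf4* by 0.10 in *Bcl11a*-/- cells and 0.89 in WT cells. The difference of *Spi1* was the larger one in *Bcl11a*-/- cells, with 1.03 beside 0.62 in WT cells. The same held for *Cebpa*, with 0.50 in *Bcl11a*-/- cells and 0.29 in WT cells, and for *Gfi1*, with 1.20 and 1.04. *Cebpd* had differences of 0.92 in *Bcl11a*-/- cells and 1.20 in WT cells. *Runx1* and *Irf5* had lower values in GMPs than in MPPs in both genotypes, by less than 2-fold.

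**Figure D3:**
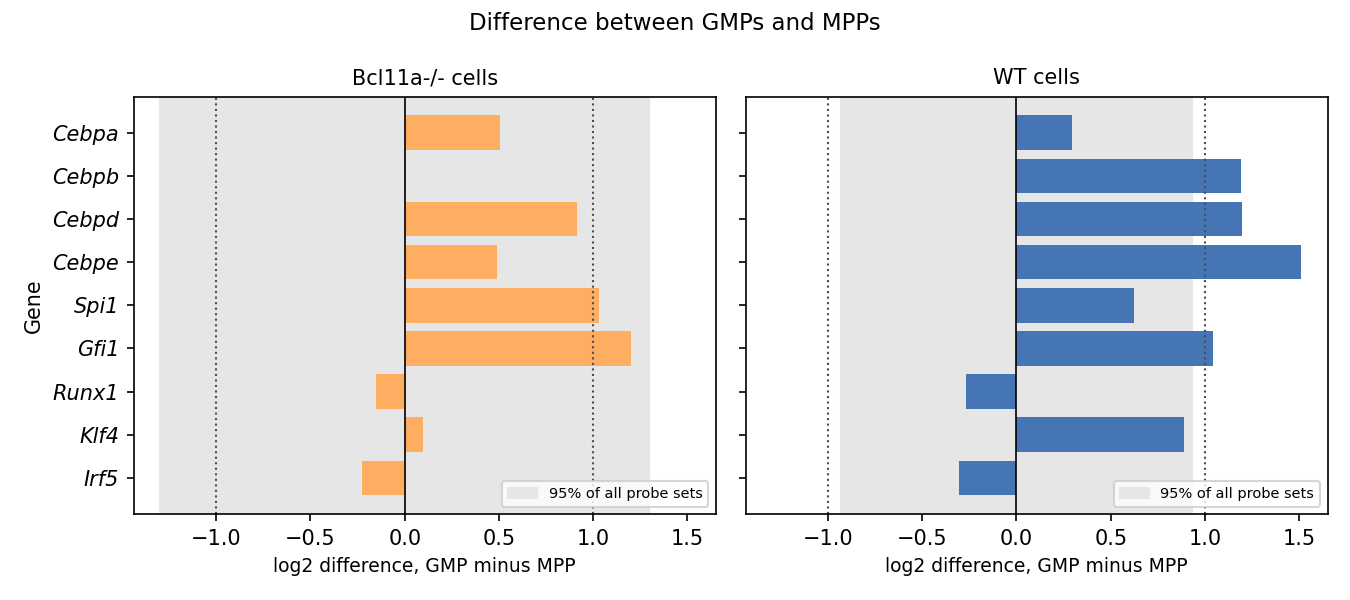
Log2 difference between GMPs and MPPs for the 9 genes in *Bcl11a*-/- cells (left) and WT cells (right), 1 array per condition; the grey band holds 95% of all probe sets and dotted lines mark a 2-fold difference. *Cebpb* is at 0.01 in *Bcl11a*-/- cells and 1.19 in WT cells, and *Gfi1* is past 2-fold in both.

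Genes known as targets of these factors were read as lists. For their counts, 0.319% of all probe sets were over 2-fold higher and 0.35% lower in *Bcl11a*-/- GMPs. In *Bcl11a*-/- MPPs 1.39% were higher and 2.51% lower. A list of primary granule genes, targets of C/EBPα, PU.1 and RUNX1, which also holds other genes of GMPs, included the largest differences of any such list, in MPPs. *Ms4a3*, *Prtn3*, *Elane*, *Ctsg* and *Mpo* are among the GMP markers as well. Of 14 measured genes 6 were over 2-fold lower in *Bcl11a*-/- MPPs (5 with the arrays quantile normalized anew), none was higher, and the median was −0.40 (−0.10 quantile normalized anew). *Ms4a3*, a membrane protein gene of GMPs, was 6.40-fold lower and *Prtn3* (proteinase 3) 6.28-fold lower. *Elane*, the neutrophil elastase gene, had log2 signals of 8.54 in *Bcl11a*-/- MPPs and 10.98 in WT MPPs, 5.43-fold lower. *Ctsg* (cathepsin G) had 8.22 in *Bcl11a*-/- MPPs and 10.48 in WT MPPs, 4.77-fold lower. *Mpo* (myeloperoxidase) was 1.42-fold lower, and *Lyz2*, the lysozyme gene of myeloid cells, differed by 0.01. In GMPs all 14 were within 2-fold, and the largest difference was that of *Serpinb1a*, 1.26-fold lower in *Bcl11a*-/- cells. Whether the differences of this list followed those of the factors was not tested.

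Late neutrophil and secondary granule genes, targets of C/EBPε among others, had higher values in the same cells. Of 17 measured genes 3 were over 2-fold higher in *Bcl11a*-/- MPPs (2 when centred on the median), none was lower, and 15 had higher values, with a median of 0.40 (0.73 quantile normalized anew). *Mmp8*, the neutrophil collagenase gene, had log2 signals of 10.49 in *Bcl11a*-/- MPPs and 8.95 in WT MPPs, 2.90-fold higher. *Chil3*, a chitinase-like protein of granulocytes and macrophages, had 10.39 in *Bcl11a*-/- MPPs and 8.86 in WT MPPs, 2.89-fold higher, and *Cxcr2*, the chemokine receptor of mature neutrophils, was 2.03-fold higher. Among other granule protein genes of the list the MPP difference was −0.01 for *Ltf* (lactoferrin), 0.03 for *Camp* (cathelicidin, up to 0.46 over the settings tried), 0.28 for *Lcn2* (lipocalin 2) and 0.40 for *Ngp* (neutrophilic granule protein). The list ran between log2 signals of 6.23 and 12.97 in *Bcl11a*-/- MPPs and between 6.15 and 13.03 in WT MPPs. Its part in the higher *Cebpe* and *Cebpb* signal was not tested. In the GMP comparison, 15 of the 17 had lower values in *Bcl11a*-/- than in WT cells, none by more than 2-fold. The largest difference there was that of *Fcnb*, 1.58-fold lower in *Bcl11a*-/- GMPs.

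Most monocyte and macrophage genes had lower values in *Bcl11a*-/- GMPs, and in MPPs the split depended on the scaling. The list holds 19 measured genes, *Irf5* among them. Of them 17 had lower values in *Bcl11a*-/- than in WT GMPs and 1 was over 2-fold lower, with a median of −0.31. Among *Bcl11a*-/- MPPs 13 had lower values and 6 higher (10 and 9 with the arrays quantile normalized anew), and 2 were over 2-fold lower, with a median of −0.28 (−0.08 once signals under 5 were set to 5). *Ly86*, the gene of MD-1, a Toll-like receptor cofactor, had log2 signals of 8.13 in *Bcl11a*-/- GMPs and 9.35 in WT GMPs, and 6.25 in *Bcl11a*-/- MPPs and 8.40 in WT MPPs. It was 2.33-fold lower in *Bcl11a*-/- GMPs and 4.42-fold lower in *Bcl11a*-/- MPPs. *F13a1*, the coagulation factor XIII gene carried by monocytes, was 2.24-fold lower in *Bcl11a*-/- MPPs. None of the 10 measured myeloid cytokine receptor genes was over 2-fold in either population. *Csf1r*, the M-CSF receptor gene and a PU.1 target, was 1.70-fold lower in *Bcl11a*-/- GMPs and 1.46-fold lower in *Bcl11a*-/- MPPs, and *Il6st*, the gp130 gene, was 1.93-fold lower in *Bcl11a*-/- MPPs. *Csf3r*, the G-CSF receptor gene and a C/EBPα target, differed by 0.03 in GMPs and 0.26 in MPPs.

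**Figure D4:**
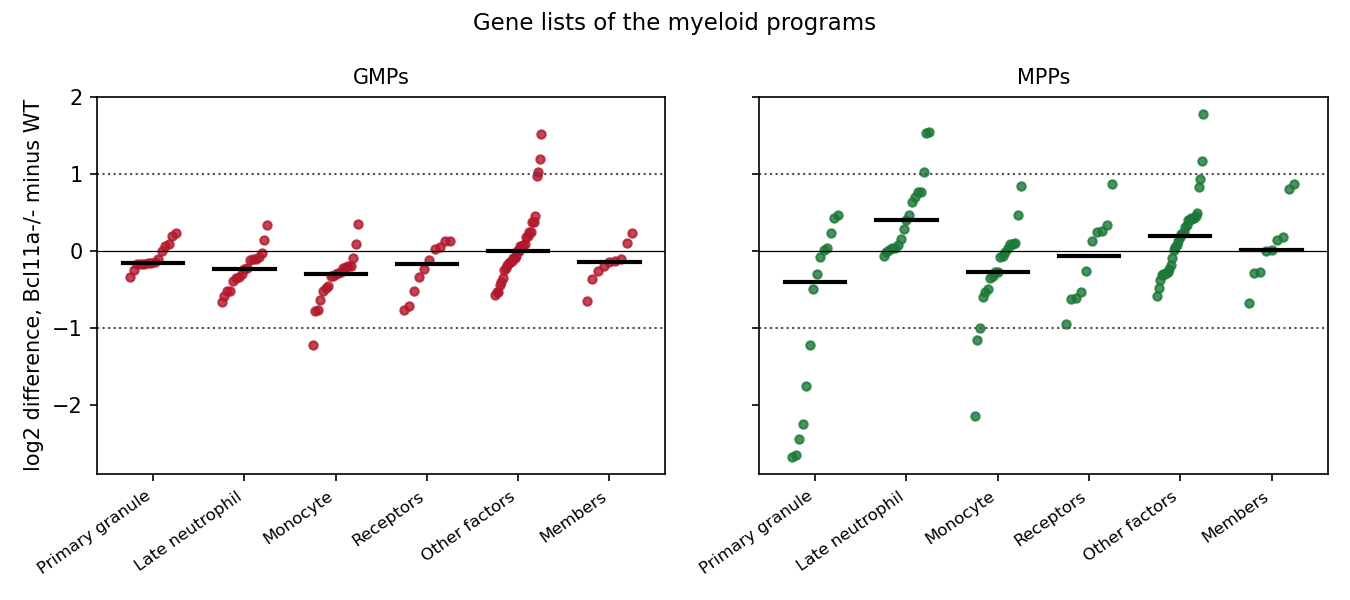
Log2 difference, *Bcl11a*-/- minus WT, of the measured genes of 5 lists (points) and of the 9 factors (Members), with GMPs in the left panel and MPPs in the right one; black bars are medians and dotted lines mark a 2-fold difference. In MPPs the primary granule median is −0.40 and the late neutrophil median 0.40, and in GMPs the monocyte median is −0.31.

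Of 32 other measured factors of myeloid fate, 3 were over 2-fold higher in *Bcl11a*-/- GMPs and none was lower. Of all probe sets 0.319% were over 2-fold higher and 0.35% lower in GMPs, and 1.39% higher and 2.51% lower in MPPs. *Gata2*, a factor of stem, mast and early erythroid cells, was 2.29-fold higher, *Gata1*, the erythroid and eosinophil factor, 2.04-fold higher, and *Trib2*, a pseudokinase that directs C/EBPα to degradation, 2.85-fold higher. Of 10 erythroid markers, a list that holds *Gata1* itself, 5 were over 2-fold higher in *Bcl11a*-/- GMPs, *Gata1* among them, with a median log2 signal of 7.52 in *Bcl11a*-/- GMPs and 6.40 in WT GMPs. Their part in these differences was not tested. Among *Bcl11a*-/- MPPs 2 of the 32 were over 2-fold higher (3 with the arrays quantile normalized anew) and none was lower. *Mycn*, active in stem cells, had log2 signals of 8.02 in *Bcl11a*-/- MPPs and 6.24 in WT MPPs. *Id2*, an inhibitor of E proteins, had 7.34 in *Bcl11a*-/- MPPs and 6.18 in WT MPPs.

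For the 5 genes whose signal spanned more than 2-fold over the 4 arrays, the genes of most similar pattern were found among 9156 genes, by the distance between log2 values centred on each gene's own mean. With 4 points many genes lie close, so these are descriptions. Nearest to *Cebpb* was *Ctsc*, the gene of the protease that activates granule enzymes, at a distance of 0.06, followed by *Chil1* at 0.11 and *Naip6* at 0.15. *Ctsc* had log2 signals of 8.62 in *Bcl11a*-/- GMPs, 9.02 in WT GMPs, 8.57 in *Bcl11a*-/- MPPs and 7.83 in WT MPPs. Nearest to *Cebpe* were *Gpr141*, an orphan receptor, at 0.09 and *Pygl*, the liver form of glycogen phosphorylase, at 0.09, then *Cers6* at 0.17. Nearest to *Spi1* was *Psmd14*, a proteasome subunit, at 0.04, then *St6galnac4* at 0.04 and *Ppp3ca* at 0.06. Nearest to *Gfi1* was *Nnt*, a mitochondrial transhydrogenase, at 0.05, then *Lrpap1* and *Twf2*, both at 0.06. For *Cebpd* it was *Atp6v0d1*, a subunit of the vacuolar proton pump, at 0.05, then *Tfam* at 0.08 and *Psat1* at 0.09.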

How the data were processed

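The authors amplified RNA of pooled sorted cells, labeled it with biotin and deposited log2 signals, 1 per probe set and array, after RMA with quantile normalization in ArrayStar; no version is given in the sources used here. Each of the 4 columns was mapped to its sample by name. Of 30177 rows, 1324 unannotated rows at the low end of the array's numbering were taken as controls, which left 28853 probe sets. Genes were named by the platform annotation, in which 21789 probe sets have 1 symbol, 1621 several and 5443 none here; all 9 symbols matched RefSeq (GRCm38.p6) by Entrez identifier. Log2 differences, *Bcl11a*-/- minus WT and GMP minus MPP, were taken as deposited. With 1 array per group no test was run, and the number of arrays limits the precision. Counts over 2-fold are given beside the share of all probe sets.

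There were 18 gene lists. The genes named from them were those over 2-fold in either population with a log2 signal of at least 6, up to 4 per list, direction and population, and otherwise the largest difference of a list, with the 3 genes of most similar pattern for each factor whose signal spanned over 2-fold (mean log2 signal of at least 6), and only some marker genes are printed. *Mpo*, *Lyz2*, *Ltf*, *Camp*, *Lcn2*, *Ngp*, *Klf12*, *Irf4*, *S100a8*, *Kit*, *Csf3r* and *Cebpg* were named after their values were seen. The genes of the set and the lists were chosen with earlier results of these data known. Alternatives were a floor at 5, median centring, lowess centring (span 0.3, statsmodels 0.14.6), quantile normalization anew, the brightest probe set, thresholds of 1.5-fold and 3-fold, and a signal minimum of 6. The steps were tested on simulated data in Python 3.11.15.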

Additional observations from a re-analysis of the deposited data

Results flagged for a closer look

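In 5 of the 9 genes the difference between *Bcl11a*-/- and WT cells had opposite signs in the 2 populations, beside 44.8% of all probe sets, and with 1 array per condition none of these was tested. *Cebpb* differed by 0.81 in MPPs and −0.37 in GMPs on the log2 scale, 1.18 apart. *Cebpe* differed by 0.87 in MPPs and −0.15 in GMPs, 1.02 apart. *Klf4* differed by 0.14 in MPPs and −0.65 in GMPs, 0.79 apart. *Cebpd* differed by 0.18 in MPPs and −0.10 in GMPs, 0.28 apart. *Runx1* differed by −0.01 in MPPs and 0.11 in GMPs, an MPP difference less the GMP difference of −0.12, and its sign in MPPs turned after lowess centring (0.11) and with the arrays quantile normalized anew (0.19).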

How the results depend on the processing

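Counts of the 9 genes over 2-fold between genotypes were 0 in both populations under every treatment of the values tried. At 1.5-fold 1 gene was lower in *Bcl11a*-/- GMPs, and in *Bcl11a*-/- MPPs 2 were higher and 1 lower. The MPP median of 0.02 became −0.031 when centred on the median of all probe sets. Between GMPs and MPPs of *Bcl11a*-/- cells the count over 2-fold was 1, not 2, after lowess centring and likewise 1 with the arrays quantile normalized anew, and 3 when centred on the median, where *Cebpd* reached 1.02. At 3-fold it was 0 in *Bcl11a*-/- cells and 0 in WT cells. With dim probe sets left out (both arrays under 6), the share over 2-fold was 6.46% between genotypes in MPPs, and between GMPs and MPPs it was 16.9% in *Bcl11a*-/- cells and 8.0% in WT cells. For single genes, 4 of 180 values crossed the 2-fold line or moved by more than 1.5-fold, and none over 2-fold changed sign. These were *Gfi1* in WT cells and *Cebpd* and *Spi1* in *Bcl11a*-/- cells, all between populations. The 180 include values under the floor and under the brightest probe set, which could not move for any of the 9 genes. Each gene has 1 probe set, and all its signals lay above the floor. These treatments therefore did not test the 9 genes, and the 4 are a larger share of the values that could move. The deposited values carry no background signal, so how far a dim gene such as *Klf4* or *Irf5* stands above it is not known. No paired analysis was possible because each group has 1 array, and for the same reason none could be left out.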
